A study of Mus musculus with 12 samples.

Results

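Bone and cartilage differentiation genes were followed in RNA of the developing upper jaw and palate of mouse embryos. The set held 36 genes, 15 of the bone lineage and 21 of the cartilage lineage, out of 53392 gene identifiers measured. The members were listed by symbol, with no value of these libraries in the rule but with earlier results of these data known. All 36 were found. Polyadenylated RNA was sequenced in 12 libraries that formed 4 groups of 3, all on the 129S4 strain background and all from tissue whose overlying ectoderm had been digested with trypsin. The first pair of groups was palatal shelf mesenchyme at E13.5 (embryonic day), from wild-type (Pdgfra+/+) embryos and from homozygous Pdgfra PI3K/PI3K embryos, whose receptor carries a mutation that keeps PI3K from binding to it. The second pair was maxillary process mesenchyme at E11.5, from Srsf3 fl/fl;Wnt1-Cre+/+ embryos (controls, without the transgene) and Srsf3 fl/fl;Wnt1-Cre+/Tg embryos (Srsf3 cKO). Every maxillary library therefore carried the floxed Srsf3 allele. Wnt1-Cre is active in the neural crest and its descendants, so that blood, endothelium and muscle precursors of the same tissue keep the allele. The series' design text describes the 3 libraries of a group as biological replicates, and how many embryos went into each is not given in the sources used here.

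Most of the facial skeleton comes from neural crest mesenchyme. In the membranous bones of the jaw and palate, mesenchymal cells turn directly into osteoblasts under Runx2 and then Sp7, and these cells go on to make alkaline phosphatase, bone sialoprotein and other matrix proteins. In cartilage, Sox9 with Sox5 and Sox6 turns on the genes of the matrix, among them type II, IX and XI collagens, aggrecan and the matrilins. Receptor signalling through PDGFRα and PI3K acts in the palatal mesenchyme, and Srsf3 encodes a splicing factor of the SR family.

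Deposited estimated counts summed to 30509338 to 37406960 per palatal shelf library and 15932541 to 27887654 per maxillary library. Srsf3 was at 624, 599 and 555 CPM in the maxillary controls and at 470, 715 and 647 CPM in those labelled Srsf3 cKO, with a log2 fold change of 0.03 (edgeR adjusted p = 0.954), so the gene total did not check the label. CPM is a gene's count scaled by the library total and a TMM factor over all 12 libraries. Pdgfra itself had a log2 fold change of 0.02 between the palatal shelf groups (edgeR adjusted p = 0.9997), as a gene total cannot show a point mutation. Among markers of facial mesenchyme, Prrx1 was at 232 to 609 TPM, Twist1 at 329 to 788 TPM and Pdgfra at 62.7 to 243 TPM over the 12 libraries, so none of the 3 was absent from any. In these bulk samples fewer cells of a type and less RNA per cell cannot be told apart.

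Promoter windows of the members, 250 bases before and 50 after an annotated start, were taken from RefSeq (GRCm38.p6) for 30 of the 36 genes, with 45 windows in all. Sp7, Col2a1, Col9a3, Sox9, Snorc and Comp had no window in the table. The letters bound by RUNX factors (TGTGGT, or ACCACA on the other strand) stood in 31.8% of the 22 windows of bone genes, in 17.4% of the 23 windows of cartilage genes and in 16.8% of all 32851 windows in the table. The letters bound by SOX factors (ACAATG or ACAAAG, or CATTGT or CTTTGT on the other strand) stood in 45.5%, 30.4% and 28.6% of the same windows. The sequences shown are those of Runx1, Sox6 and Alpl, which among the members that differed in a comparison below held the most matches, and those of Runx2 and Runx3, added after their values had been seen because the Runx windows share a stretch. RUNX or SOX letters are in capitals, each sequence runs 5′ to 3′ on the strand of its gene, and no RUNX match overlaps a SOX match in them. A second Sox6 window tied with the one shown, at 4 matches.
Runx1 lies on the minus strand, and its window is chr16:92826025-92826324.
Runx1 promoter: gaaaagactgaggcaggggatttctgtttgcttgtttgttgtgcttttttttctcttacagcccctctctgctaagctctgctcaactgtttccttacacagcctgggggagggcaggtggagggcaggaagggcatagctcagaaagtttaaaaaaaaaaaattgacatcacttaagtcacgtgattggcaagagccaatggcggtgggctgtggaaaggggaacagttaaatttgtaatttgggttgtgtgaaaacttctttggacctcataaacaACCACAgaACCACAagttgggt
Runx2 lies on the minus strand, and its window is chr17:44814578-44814877.
Runx2 promoter: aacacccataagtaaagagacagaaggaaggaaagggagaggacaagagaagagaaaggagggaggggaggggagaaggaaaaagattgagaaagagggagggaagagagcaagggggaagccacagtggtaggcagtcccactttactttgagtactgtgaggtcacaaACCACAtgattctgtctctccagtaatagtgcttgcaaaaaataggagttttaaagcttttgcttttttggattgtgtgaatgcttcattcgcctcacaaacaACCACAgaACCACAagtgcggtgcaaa
Runx3 lies on the plus strand, and its window is chr4:135120395-135120694.
Runx3 promoter: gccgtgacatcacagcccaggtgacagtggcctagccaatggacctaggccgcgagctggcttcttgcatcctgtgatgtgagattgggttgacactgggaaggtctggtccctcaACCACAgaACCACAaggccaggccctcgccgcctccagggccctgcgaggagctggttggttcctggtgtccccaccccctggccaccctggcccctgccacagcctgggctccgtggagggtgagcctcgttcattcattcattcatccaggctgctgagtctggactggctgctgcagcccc
Sox6 lies on the minus strand, and its window is chr7:115995037-115995336.
Sox6 promoter: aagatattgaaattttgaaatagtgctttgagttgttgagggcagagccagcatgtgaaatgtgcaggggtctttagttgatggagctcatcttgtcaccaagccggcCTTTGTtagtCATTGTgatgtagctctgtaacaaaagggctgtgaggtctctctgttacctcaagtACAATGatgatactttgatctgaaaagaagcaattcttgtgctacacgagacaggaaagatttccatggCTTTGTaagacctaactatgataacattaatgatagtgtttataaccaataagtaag
Alpl lies on the minus strand, and its window is chr4:137766426-137766725.
Alpl promoter: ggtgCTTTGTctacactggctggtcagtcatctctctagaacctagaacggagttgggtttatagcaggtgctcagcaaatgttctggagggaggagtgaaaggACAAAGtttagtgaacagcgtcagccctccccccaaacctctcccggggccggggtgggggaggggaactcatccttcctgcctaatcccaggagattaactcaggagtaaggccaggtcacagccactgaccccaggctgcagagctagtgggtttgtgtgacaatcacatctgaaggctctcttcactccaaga
The 3 Runx windows share a run of 18 bases that holds a pair of RUNX matches 2 bases apart, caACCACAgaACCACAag, and Runx1 and Runx2 share 22 bases around it, aaacaACCACAgaACCACAagt. These matches are letters in a window and no binding was measured.

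Levels of the members ran from 0 to 960 CPM. Compared per transcript length, in TPM (a share of transcripts, corrected for their length), the bone genes with the highest means in wild-type palatal shelf were Ibsp, which encodes bone sialoprotein, at 312 ± 504 TPM, Alpl, the tissue-nonspecific alkaline phosphatase, at 121 ± 107 TPM, and Runx2 at 84.8 ± 34.7 TPM (SD, n = 3). The cartilage genes with the highest means there were Col2a1, the main collagen of cartilage, at 179 ± 118 TPM, Col9a2 at 121 ± 29.0 TPM and Col11a1 at 93.4 ± 74.4 TPM. In maxillary controls Col2a1 led at 138 ± 24.5 TPM, followed by Runx2 at 67.0 ± 44.1 TPM and Sox9 at 30.0 ± 14.3 TPM. The SD of Ibsp exceeded its mean, so its place at the head of the list rested on single libraries. The late genes were near the limit of counting. Col10a1, the collagen of hypertrophic cartilage, had 3 counts in wild-type palatal shelf library 1 and 0 counts in the other libraries, and Bglap, which encodes osteocalcin, was at most at 0.109 CPM in any library.

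**Figure D1:**
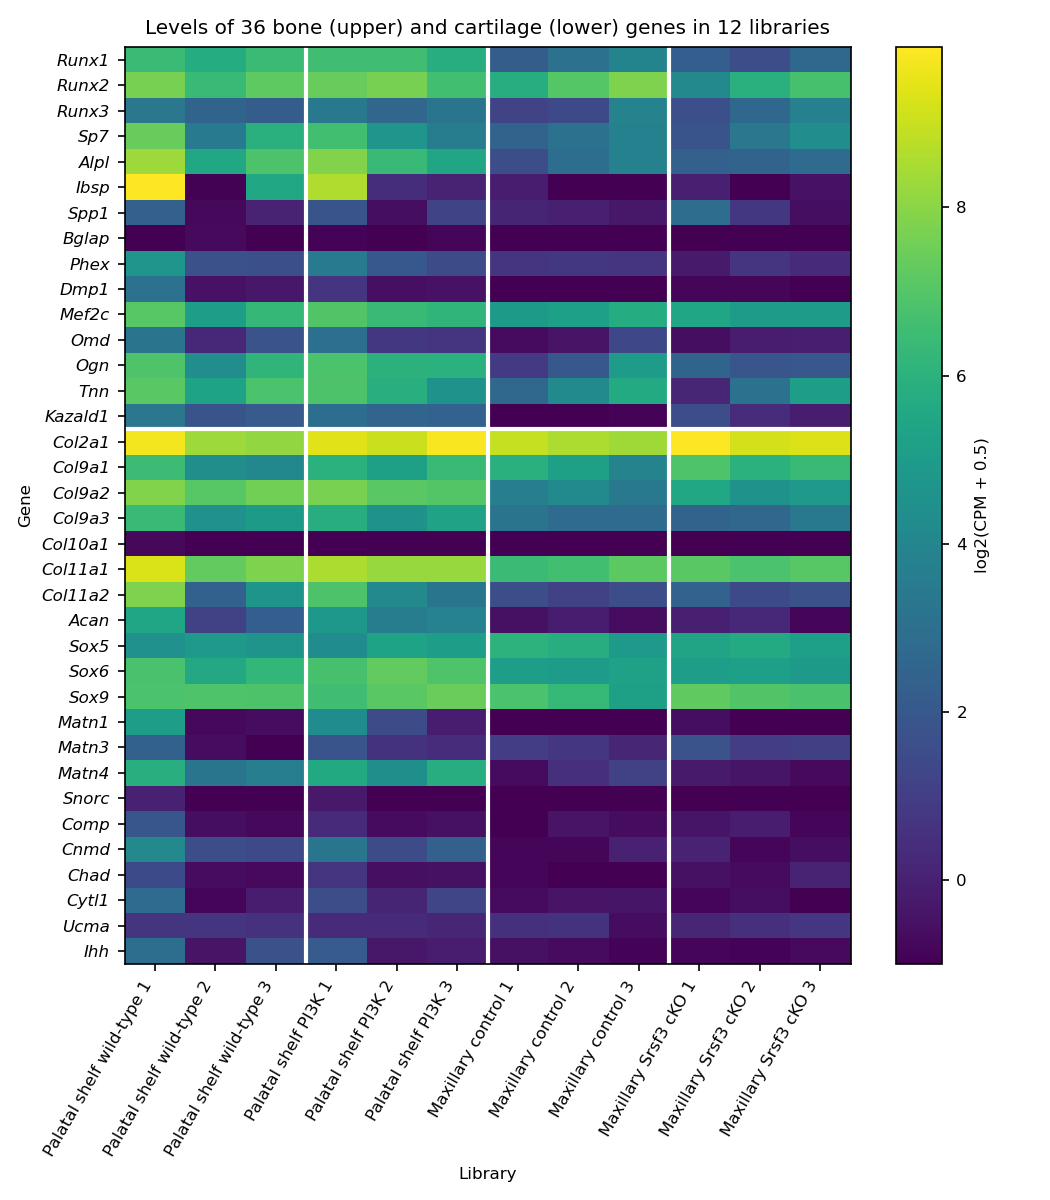
Levels of the 36 genes (rows, 15 bone genes above the white line and 21 cartilage genes below it) in the 12 libraries (columns, 4 groups of 3), as log2(CPM + 0.5). Palatal shelf libraries numbered 1 are brighter than the libraries beside them in many rows, for example Ibsp at 952 and 386 CPM against 0.027 to 45.1 CPM in the other palatal shelf libraries, and Bglap, Col10a1 and Snorc are dark throughout.

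Within the palatal shelf the early regulators of bone varied less over the 6 libraries than the genes of mature osteoblasts. Runx2, the regulator that commits cells to the osteoblast fate, was at 201, 82.6 and 149 CPM in wild-type libraries 1, 2 and 3 and at 166, 205 and 98.1 CPM in PI3K libraries 1, 2 and 3. Its highest library was 2.48 times its lowest, and the groups overlapped. Runx1, a related factor known best from blood and also expressed in skeletal progenitors, was at 84.9, 52.7 and 85.6 CPM in wild-type and at 93.6, 93.9 and 55.0 CPM in PI3K libraries, a ratio of 1.78. Runx3, the third member of the family, was low, between 4.11 and 10.1 CPM. Mef2c, a factor that acts in skeletal and muscle cells, was at 134, 32.7 and 77.4 CPM in wild-type and at 122, 83.1 and 69.1 CPM in PI3K libraries. Here wild-type library 1 was the highest and wild-type library 2 the lowest.

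Sp7, which acts after Runx2 in osteoblasts, was at 164, 10.7 and 59.9 CPM in wild-type and at 95.9, 26.0 and 11.6 CPM in PI3K libraries. Both libraries numbered 1 stood above the rest, and the highest was 15.3 times the lowest. Alpl, needed for mineralisation, was at 316, 44.8 and 116 CPM in wild-type and at 229, 81.7 and 43.8 CPM in PI3K libraries, in nearly the same order of libraries. Ibsp was at 952, 0.027 and 45.1 CPM in wild-type and at 386, 0.837 and 0.545 CPM in PI3K libraries. Its lowest value, in wild-type library 2, rested on 1 count, so no ratio is given. Dmp1 and Phex, both expressed in cells of mineralising bone, had the same top libraries. Dmp1 was at 8.19 CPM in wild-type library 1, at 1.12 CPM in PI3K library 1 and between 0.186 and 0.312 CPM in the others. Phex was at 25.0 and 10.3 CPM in the libraries numbered 1 and between 2.39 and 3.56 CPM in the others. Spp1, which encodes osteopontin, was at 4.51, 0.082 and 0.567 CPM in wild-type and at 3.04, 0.155 and 1.87 CPM in PI3K libraries. Dmp1, Ibsp and Spp1 lie in 1 cluster on chromosome 5 (GENCODE M21, GRCm38: Dmp1 from 104202613 to 104214102, Ibsp from 104299171 to 104311469 and Spp1 from 104435118 to 104441050).

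Ogn, Omd and Tnn encode the matrix proteins osteoglycin, osteomodulin and tenascin-N. Ogn was at 121, 19.8 and 68.9 CPM in wild-type and at 113, 63.4 and 61.3 CPM in PI3K libraries. Tnn was at 137, 40.0 and 112 CPM in wild-type and at 116, 56.4 and 23.0 CPM in PI3K libraries. The ratios of Ogn and Tnn were 6.12 and 5.93, smaller than that of Sp7. Omd was low, from 0.708 CPM in wild-type library 2 to 8.62 CPM in wild-type library 1. Kazald1, a secreted protein of bone, was between 3.02 and 9.62 CPM, again from wild-type library 2 to wild-type library 1. Of the 14 bone genes that passed the filter on low counts, 11 were highest in wild-type library 1 and 9 were lowest in wild-type library 2. In 12 of the 14 the 2 highest libraries were those numbered 1, 1 from each genotype. Both libraries numbered 1 were high although their genotypes differ. Over all 16525 genes tested, the deviations of these 2 libraries from their group means correlated at 0.58. Deviations shared by the 2 libraries were thus not confined to the members, and these counts were not taken over all genes.

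Of the 17 cartilage genes tested, 10 had their 2 highest levels in the libraries numbered 1, and the 3 Sox factors, Col2a1, Col9a1, Matn4 and Ucma did not. Sox9, the factor that specifies cartilage and is also expressed in palatal mesenchyme, was at 114, 119 and 114 CPM in wild-type and at 93.4, 137 and 169 CPM in PI3K libraries. Sox5, its partner, was at 22.5, 28.3 and 24.7 CPM in wild-type and at 19.5, 40.0 and 34.2 CPM in PI3K libraries. Both factors were lowest in PI3K library 1, a library in which matrix genes were high. Sox6, the other partner, was at 108, 47.2 and 74.8 CPM in wild-type and at 105, 155 and 120 CPM in PI3K libraries. Col2a1 (chromosome 15, 97975602 to 98004695) was at 853, 321 and 281 CPM in wild-type and at 683, 525 and 880 CPM in PI3K libraries. It was thus high in wild-type library 1 and in all PI3K libraries, with overlap between the groups.

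Col9a1, a chain of type IX collagen, was at 89.4, 20.7 and 16.8 CPM in wild-type and at 62.6, 36.1 and 81.2 CPM in PI3K libraries. Col9a2 and Col9a3, the other chains of that collagen, varied less, with highest libraries 1.77 and 3.68 times the lowest. Of the 2 type XI chains, Col11a1 was between 156 and 626 CPM and Col11a2 was at 225, 4.76 and 24.6 CPM in wild-type and at 117, 17.2 and 8.82 CPM in PI3K libraries. The ratio of Col11a2 was 47.2, against 4.00 for Col11a1. Its order over the libraries was that of Sp7, with wild-type library 3 above PI3K library 3. Acan, the large proteoglycan aggrecan, was at 42.0, 1.74 and 4.28 CPM in wild-type and at 28.1, 11.53 and 13.8 CPM in PI3K libraries. Matn1, a matrilin of mature cartilage, was at 33.6, 0.082 and 0.142 CPM in wild-type and at 19.3, 2.32 and 0.415 CPM in PI3K libraries, with 3 counts in its lowest library. Matn4 was at 57.8, 8.87 and 12.3 CPM in wild-type and at 48.6, 21.2 and 55.2 CPM in PI3K libraries.

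The remaining cartilage genes were low, and most were highest in wild-type library 1. Ihh, the hedgehog signal of prehypertrophic chondrocytes, was at 7.19, 0.245 and 2.72 CPM in wild-type and at 3.91, 0.310 and 0.415 CPM in PI3K libraries. Cnmd, which encodes chondromodulin, ran from 2.13 to 17.2 CPM, Cytl1 from 0.054 to 6.60 CPM and Matn3 from 0 to 4.67 CPM. Comp and Chad, 2 proteins of the cartilage matrix, were at 3.30 and 2.27 CPM in wild-type library 1, at 0.714 and 1.09 CPM in PI3K library 1 and under 0.21 CPM elsewhere in the shelf. Ucma had no library that stood out, at 1.12, 1.12 and 0.964 CPM in wild-type and at 0.776, 0.713 and 0.623 CPM in PI3K libraries, all near 1 CPM and with no overlap between the groups. Of the 17 cartilage genes that passed the filter, 13 were highest in wild-type library 1 and 9 lowest in wild-type library 2. Over all 31 genes that passed, the median ratio of highest to lowest library was 6.12, 12 had a ratio over 10 and 7 a ratio under 3. None of these counts or ratios was taken over all genes tested.

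**Figure D2:**
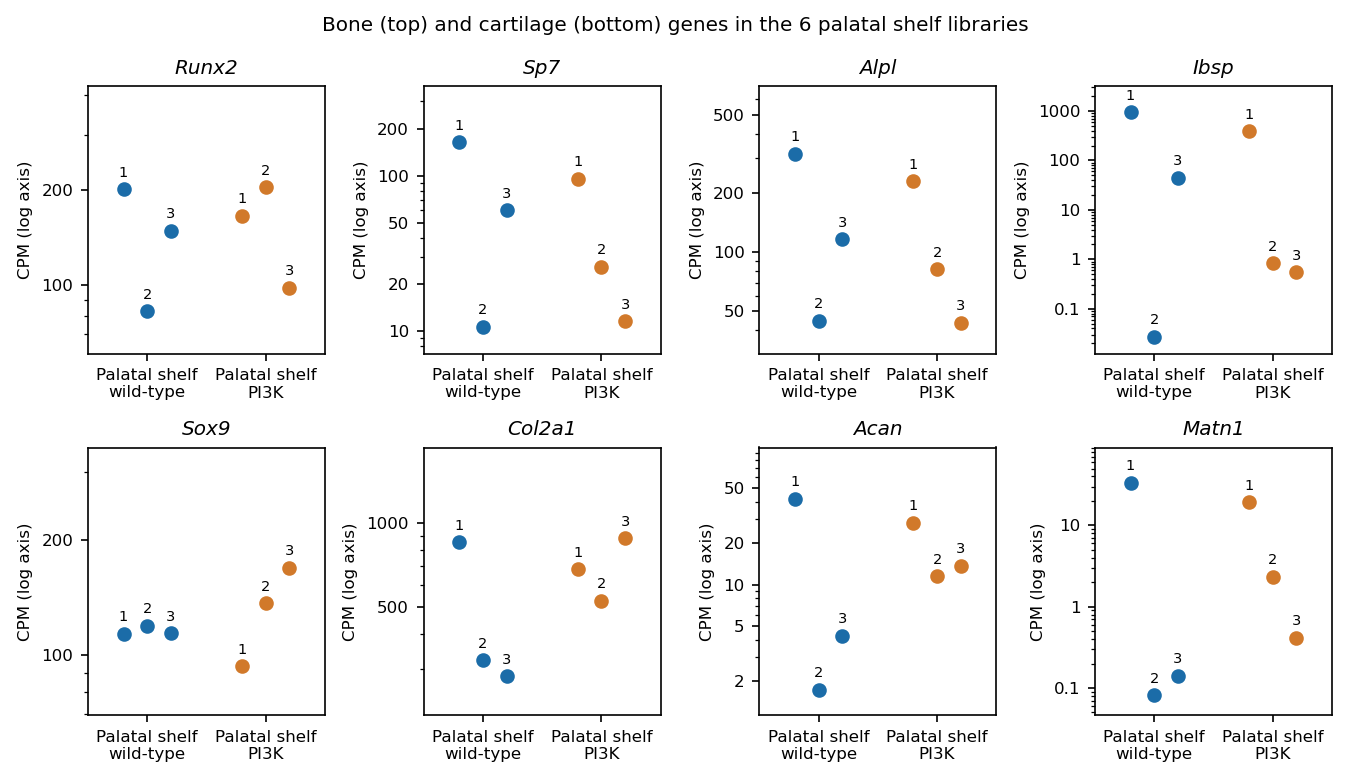
CPM (log axis, with a scale of its own in each panel) of 4 bone genes (top) and 4 cartilage genes (bottom) in the 6 palatal shelf libraries; each point is 1 library and carries its replicate number. Libraries numbered 1 of both genotypes lead in Sp7, Alpl, Ibsp, Acan and Matn1, whereas Sox9 lies between 93.4 and 169 CPM in all 6.

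The bone and the cartilage genes did not order the other libraries in the same way. The mean of the centred log2 levels of the 14 bone genes was 1.63 in wild-type library 1, -1.32 in library 2 and 0.03 in library 3, and 1.06, -0.55 and -0.85 in the PI3K libraries. For the 17 cartilage genes it was 1.284, -1.09 and -0.64 in wild-type and 0.74, -0.23 and -0.07 in PI3K libraries. Wild-type library 3 thus came next after the libraries numbered 1 for the bone genes, and second from the bottom for the cartilage genes. For PI3K library 3 these places were the other way round. These means were taken from the libraries they describe and were not tested. Marker lists of other cells moved with them in part. The osteoclast list of 7 genes summed to 159, 26.7 and 54.4 TPM in wild-type and to 124, 35.4 and 37.1 TPM in PI3K libraries, with Dcstamp and Atp6v0d2 at 0 in some library of each group and Ocstamp in a PI3K library. The macrophage list of 8 genes summed to 133, 47.7 and 74.8 TPM in wild-type and to 104, 55.3 and 74.9 TPM in PI3K libraries, with no gene at 0. The list of 4 genes of the anterior palate summed to 381, 553 and 465 TPM in wild-type and to 341, 486 and 364 TPM in PI3K libraries. As a mean of centred log2 levels that list was at -0.03, 0.22 and 0.08 in wild-type and at -0.23, 0.25 and -0.28 in PI3K libraries, so its lowest PI3K library depended on the measure. The posterior list was at -0.32, 0.03 and -0.02 and at -0.12, 0.17 and 0.26 on that measure, lowest in the library numbered 1 of each group. The tendon list was at 0.29, -0.20 and -0.03 and at 0.31, -0.14 and -0.23, highest in those libraries. Its sums were 88.9, 98.4 and 88.2 TPM in wild-type and 91.5, 109 and 129 TPM in PI3K libraries, so its highest libraries depended on the measure. The part of these other cells, or of the dissected region, in the levels of the members was not tested.

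Between PI3K and wild-type palatal shelves, the question was how the mutant receptor changes the transcriptome of the shelf, and no bone or cartilage gene differed past the threshold. Fold changes below are PI3K minus wild-type on the log2 scale, from edgeR's quasi-likelihood test on 31 members that passed the filter on low counts (Bglap, Col10a1, Snorc, Comp and Chad did not). At a false discovery rate of 0.05 over 16525 genes, 0 members passed, as did 0 genes (0%), and the adjusted p of all 31 members was 0.9997. DESeq2 called 0 members and 4 genes in all. At an unadjusted p under 0.05 there was 1 member, against 2.14% of all genes tested. That gene was Sox6, with a log2 fold change of 0.71 (SE 0.30, unadjusted p = 0.0461 and adjusted p = 0.9997 by edgeR), and its groups overlapped. The groups of 1 member, Ucma, did not overlap, against 6.23% of all genes, and its log2 fold change was -0.61 (SE 0.29). Fitted values were above 0 for 14 members and below 0 for 17. Their median was -0.19 for bone and -0.07 for cartilage genes, against -0.01 over all genes tested.

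The intervals of these fold changes were wide where the libraries spread. For Ibsp the log2 fold change was -1.36 with a 95% interval from -7.26 to 4.53, for Matn1 it was -0.62 with an interval from -5.12 to 3.87, and for Sp7 it was -0.82 with an interval from -3.21 to 1.57. For Runx2 it was 0.11 with an interval from -0.76 to 0.97, for Sox9 0.19 from -0.25 to 0.63, for Col9a2 -0.23 from -0.82 to 0.37, and for Col2a1 0.50 from -0.51 to 1.51. A 2-fold change of Sox9 in either direction lay outside its interval, and a 2-fold change of Ibsp or Matn1 lay well inside. Without wild-type library 1 the median became 0.80 for bone and 1.20 for cartilage genes, and without PI3K library 1 it became -1.02 and -0.48. With both libraries numbered 1 left out, a choice made after the levels had been seen, the medians were 0.12 and 0.63, and again 0 members passed. The skeletal muscle list was higher in PI3K libraries for 12 of 12 genes, with 4 at an unadjusted p under 0.05 and 0 past the threshold by edgeR, 0 called by DESeq2 and a median log2 fold change of 2.68. It summed to 104, 10.8 and 14.0 TPM in wild-type and to 464, 58.2 and 231 TPM in PI3K libraries, with Myod1 and Myf5 at 0 in some wild-type library, and its part in the results was not tested.

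**Figure D3:**
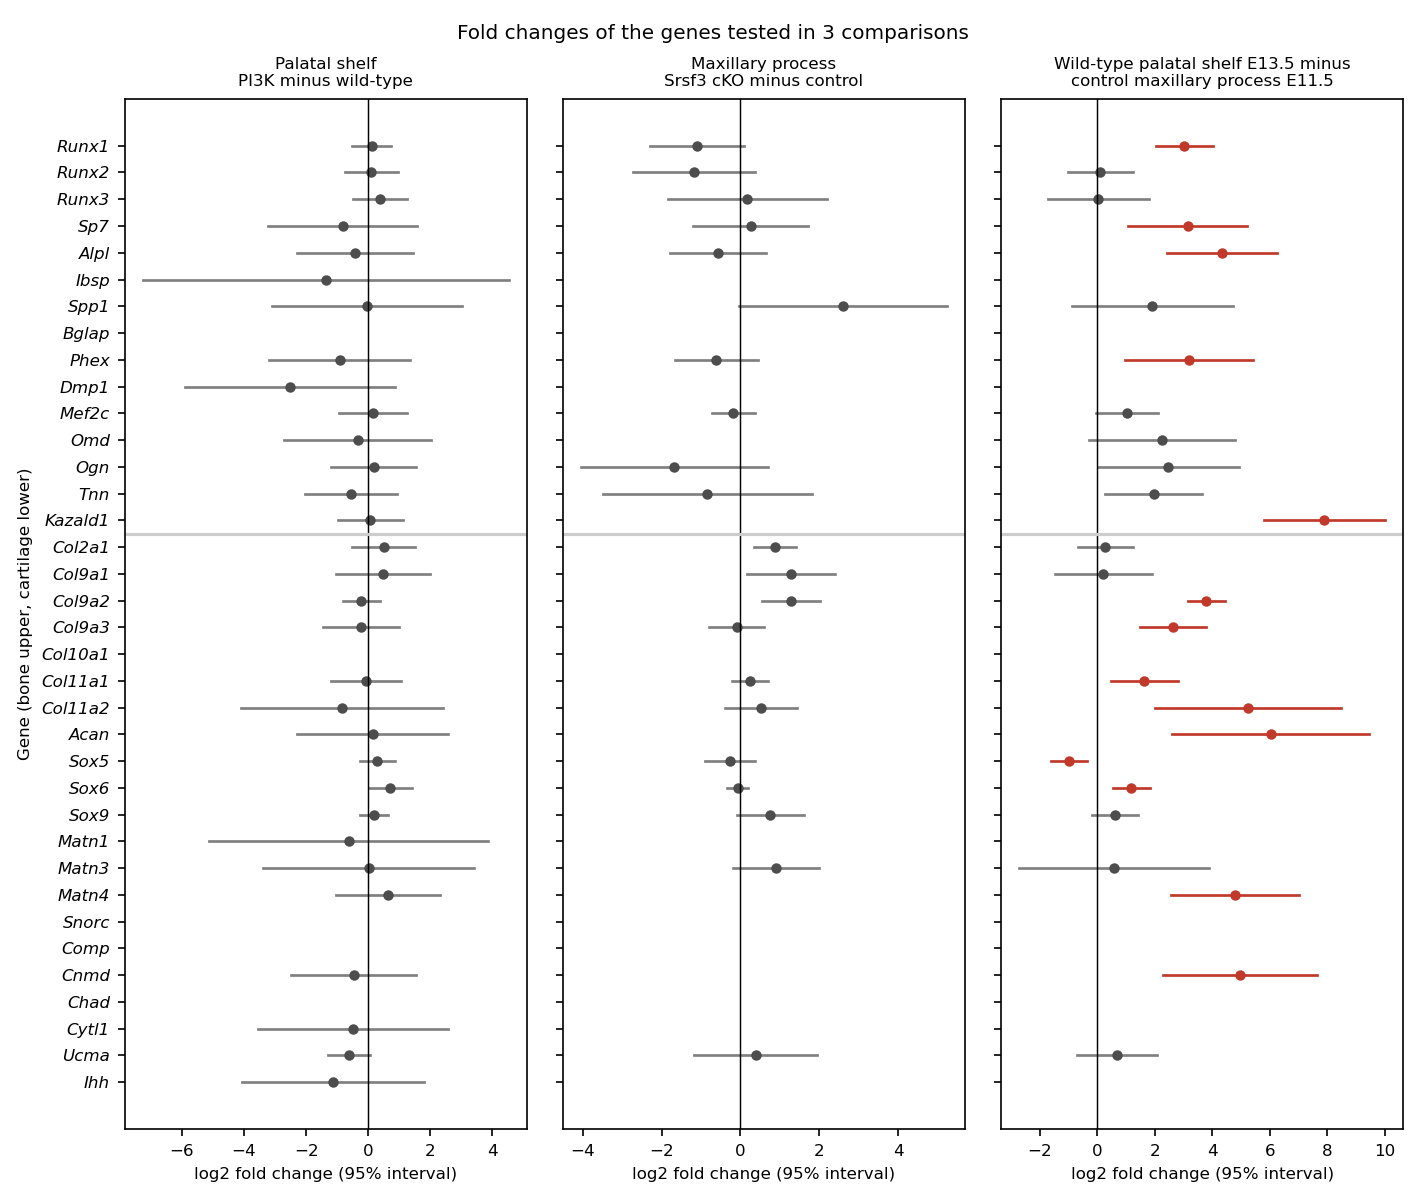
Log2 fold changes (points) with 95% intervals (lines) of the members tested by edgeR in 3 comparisons, bone genes above the grey line and cartilage genes below it; red marks an adjusted p under 0.05, and a gene without a point did not pass the filter on low counts. No gene is red in the first 2 panels, 14 are red in the third, and the intervals of Ibsp and Matn1 in the first panel are the widest.

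In the maxillary process, the question was how loss of Srsf3 from neural crest mesenchyme changes its transcripts, and 3 cartilage collagen genes had their highest levels in the libraries labelled Srsf3 cKO without reaching the threshold. The share of members with such a difference was near that of all genes, as counted below. Col2a1 was at 495, 381 and 330 CPM in controls 1, 2 and 3 and at 960, 595 and 640 CPM in Srsf3 cKO libraries 1, 2 and 3. Its log2 fold change was 0.87 (SE 0.23, edgeR adjusted p = 0.277), and the groups did not overlap. Col9a1 was at 60.3, 36.4 and 14.1 CPM in controls and at 120, 62.5 and 84.2 CPM in cKO libraries, with a log2 fold change of 1.279 (SE 0.48, edgeR adjusted p = 0.378). Here too every cKO library was above every control. Col9a2 was at 12.05, 18.3 and 10.3 CPM in controls and at 46.4, 24.1 and 28.5 CPM in cKO libraries, with a log2 fold change of 1.29 (SE 0.31, edgeR adjusted p = 0.250). Col9a3, the third chain of type IX collagen, had a log2 fold change of -0.10 (SE 0.30), and its groups overlapped. Sox9 was at 113, 79.1 and 35.7 CPM in controls and at 151, 123 and 111 CPM in cKO libraries, with a log2 fold change of 0.76 (SE 0.36, edgeR adjusted p = 0.455). Its groups overlapped by 1 library, cKO library 3 lying below control 1.

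Of 21 members tested in the maxillary process, 0 passed a false discovery rate of 0.05, against 12 of 14254 genes (0.0842%). At an unadjusted p under 0.05 by edgeR there were 3 members, Col2a1, Col9a1 and Col9a2, against 12.2% of all genes. Groups did not overlap for 4 members, these 3 and Phex, against 18.1% of all genes. Both counts are near the background shares. Phex, lower in the cKO libraries with a log2 fold change of -0.61 (SE 0.45), overlapped when all 12 libraries were scaled together. The median log2 fold change was 0.53 over 11 cartilage genes and -0.59 over 10 bone genes, against 0.0041 over all genes tested, and the bone median became 0.28 without control 3. DESeq2 called 376 genes in all, 3 of them members. By DESeq2 these were Col2a1 at an adjusted p of 0.00446, Col9a2 at 0.00123 and Kazald1, which edgeR's filter had removed, at 0.00612. Without the filter edgeR called 143 genes in all, among them the members Col9a2 (adjusted p = 0.0473) and Kazald1 (adjusted p = 0.0379). Kazald1 had 1 count in the 3 controls and 76 counts in the 3 cKO libraries. That is a ratio of 65.6 after scaling, with a 95% interval from 11.4 to 2626 that covers counting error only. The gene overlaps another gene model on the same strand.

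Runx2 and Runx1 had lower means in the cKO libraries, without passing the threshold in the fit without a block. Runx2 was at 55.8, 130 and 220 CPM in controls and at 17.1, 59.9 and 105 CPM in cKO libraries, with a log2 fold change of -1.19 (SE 0.66, edgeR adjusted p = 0.524). With the replicate number as a block it was -1.29 (edgeR adjusted p = 0.0402), although whether the numbers pair the libraries was not settled. The range within each group was larger than the difference between the group means of 135 and 60.8 CPM. Runx1 was at 4.17, 7.93 and 14.9 CPM in controls and at 4.31, 2.499 and 5.99 CPM in cKO libraries, with a log2 fold change of -1.10 (SE 0.51, edgeR adjusted p = 0.440). Ogn was at 1.302, 3.54 and 32.2 CPM in controls and at 5.24, 3.28 and 3.36 CPM in cKO libraries, so its log2 fold change of -1.67 (SE 1.02) rested on control 3 and became 0.71 without it. Spp1 was at 0.586, 0.480 and 0.320 CPM in controls and at 6.91, 1.21 and 0.171 CPM in cKO libraries, with 1 high library and overlap between the groups. Sox6 differed least, at 32.1 to 37.4 CPM in controls and 29.8 to 35.4 CPM in cKO libraries.

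Inside the maxillary controls most bone genes shared an order over the libraries, and fewer cartilage genes had the opposite one. In the controls 8 of 10 bone genes were lowest in library 1 and highest in library 3 (Runx1, Runx2, Runx3, Sp7, Alpl, Mef2c, Ogn and Tnn). There 5 of 11 cartilage genes were highest in library 1 and lowest in library 3 (Col2a1, Col9a1, Sox5, Sox9 and Matn3), and Col11a1 had the order of the bone genes. Tnn was at 5.73, 17.5 and 50.5 CPM and Sp7 at 5.08, 7.99 and 13.4 CPM in the 3 controls, while Sox5 was at 65.2, 55.1 and 29.8 CPM. In the cKO libraries 5 of the 10 bone genes were lowest in library 1 and highest in library 3 (Runx2, Runx3, Sp7, Alpl and Tnn). Tnn was at 0.623, 7.93 and 34.1 CPM and Sp7 at 3.06, 9.41 and 20.1 CPM there. Of the 11 cartilage genes, 1 (Sox9) was highest in cKO library 1 and lowest in cKO library 3, and 2 (Col9a3 and Ucma) had the reverse order. Replicate numbers carry no order of their own, and library totals were 15932541, 17151040 and 21722187 counts in the controls and 19707120, 27887654 and 18356229 in the cKO libraries. These orders were noticed in the values and were not tested.

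**Figure D4:**
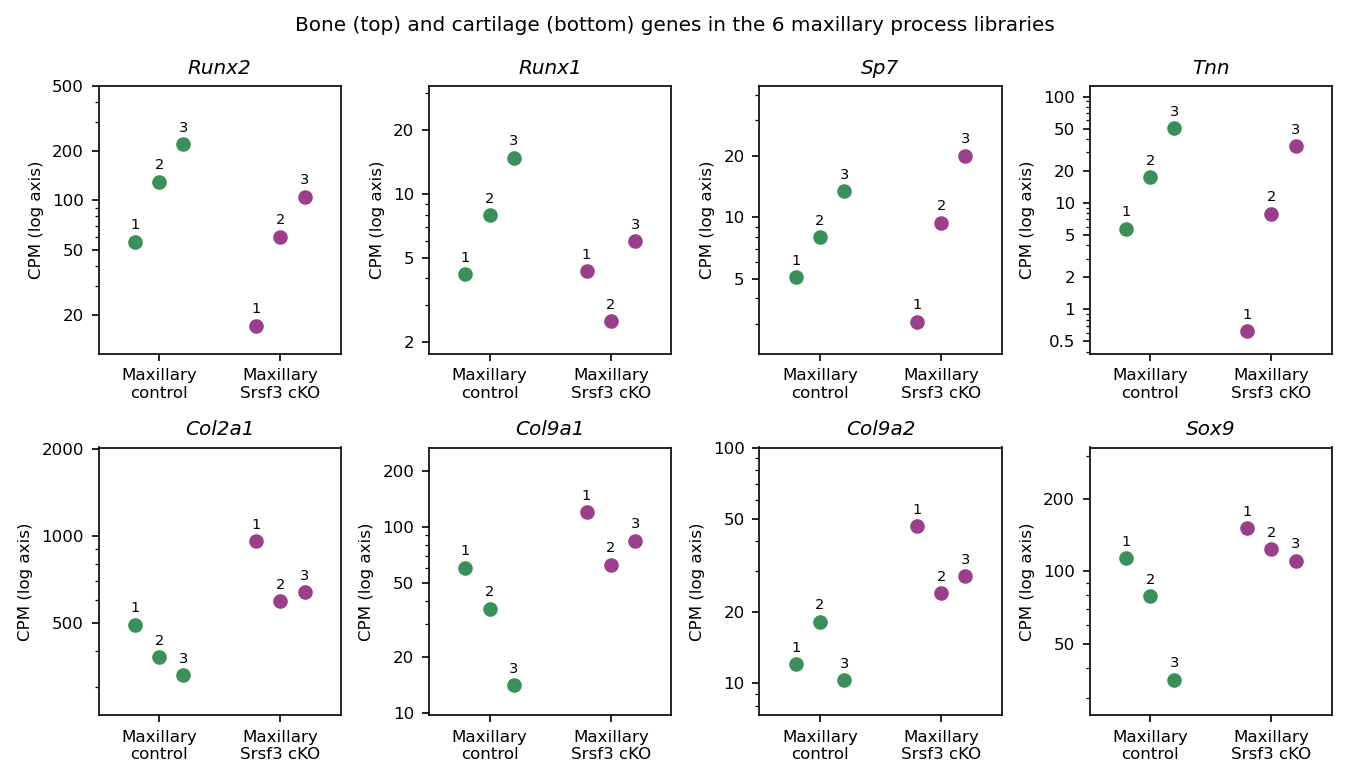
CPM (log axis, with a scale of its own in each panel) of 4 bone genes (top) and 4 cartilage genes (bottom) in the 6 maxillary process libraries; each point is 1 library and carries its replicate number. Runx2, Sp7 and Tnn are lowest in library 1 and highest in library 3 of each group, and Col2a1, Col9a1 and Col9a2 are higher in every Srsf3 cKO library than in any control.

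Some marker lists of other cells leaned in 1 direction between the same maxillary groups, with 0 of their genes past the threshold by edgeR. Of all genes tested, 12.2% had an unadjusted p under 0.05 by edgeR and 18.1% had groups without overlap. The red blood cell list was higher in the cKO libraries for 8 of 8 genes, with 0 at an unadjusted p under 0.05 by edgeR and 0 without overlap. The endothelial list was higher in the cKO libraries for 8 of 8 genes, all without overlap, with 8 at an unadjusted p under 0.05 and 0 past the threshold by edgeR, and 5 called by DESeq2. It summed to 170 to 180 TPM in controls and to 217 to 427 TPM in cKO libraries, and none of its genes was at 0. The ectoderm list was higher for 8 of 8 genes tested, 5 of them without overlap, with 5 at an unadjusted p under 0.05 and 0 past the threshold by edgeR, and 1 (Krt18) called by DESeq2. It summed to 1.83 to 7.30 TPM in controls, with Krt5, Krt14, Krt15, Cdh1 and Esrp1 at 0 in some library, and to 8.998 to 16.4 TPM in cKO libraries. The neuron and glia list was lower for 5 of 5 genes tested, with 2 at an unadjusted p under 0.05 by edgeR. It had 0 past the threshold by edgeR and 0 called by DESeq2. The muscle list was higher for 4 of 4 genes tested, with 1 at an unadjusted p under 0.05 by edgeR. Of that list edgeR called 0 and DESeq2 3 (Myf5, Myod1 and Actc1). The part of these cells in the levels of the collagen and bone genes was not tested.

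Wild-type palatal shelf at E13.5 was then set against control maxillary process at E11.5. The maxillary process gives rise to the palatal shelf, so the pair sets a later against an earlier tissue of the same origin. Tissue, age, the floxed Srsf3 allele, the lane in the labels and the 2 separately deposited tables cannot be told apart in this comparison. Depth differed with them, at 30654736 to 35330324 counts in the shelf libraries and 15932541 to 21722187 in the controls. Of 26 members tested by edgeR, 14 passed a false discovery rate of 0.05 (53.8%), against 50.6% of all 15752 genes tested, so the share was near the background. By direction, 13 were higher in the palatal shelf, against 27.1% of all genes, and 1 was lower, against 23.4%. Groups did not overlap for 14 members, against 62.1% of all genes. The median log2 fold change was 2.36 over 12 bone and 1.41 over 14 cartilage genes, against 0.03 over all genes tested. The count of 14 became 9 without control 2, 18 without wild-type library 2 and 22 without the filter on low counts. The shares of all genes under these settings are not given here, so these counts were not compared with the background.

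All 12 bone genes tested had log2 fold changes above 0, as did 8197 of all 15752 genes tested. Of these 12, 5 passed the threshold, against 27.1% of all genes that passed as higher. Runx1 was at 4.17, 7.93 and 14.9 CPM in the controls and at 84.9, 52.7 and 85.6 CPM in the palatal shelf, with a log2 fold change of 3.04 (SE 0.42, edgeR adjusted p = 0.00119). Every shelf library was above every control. Alpl was at 2.60, 7.21 and 13.53 CPM in the controls and at 316, 44.8 and 116 CPM in the shelf, with a log2 fold change of 4.33 (SE 0.83, edgeR adjusted p = 0.00418). Kazald1 rose from 1 count in the 3 controls to 555 counts in the 3 shelf libraries, a scaled ratio of 287 with a counting interval from 51.4 to 11370 (edgeR adjusted p = 5.7e-04). Sp7 had a log2 fold change of 3.15 (SE 0.89, edgeR adjusted p = 0.0208), although its groups overlapped at 13.4 CPM in control 3 and 10.7 CPM in shelf library 2. Its adjusted p by edgeR was 0.0659 without control 1, 0.0786 without control 2 and 0.0613 without shelf library 1. Phex had a log2 fold change of 3.19 (SE 0.96, edgeR adjusted p = 0.0259), and the adjusted p was 0.0702, 0.0821 and 0.0698 without control 1, 2 or 3. With the block the adjusted p of Sp7 by edgeR was 0.0640, and that of Phex by limma on log2(TPM + 1) was 0.0649.

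Runx2 did not follow Runx1 between the stages. It was at 55.8, 130 and 220 CPM in the controls and at 201, 82.6 and 149 CPM in the shelf, with a log2 fold change of 0.10 and a 95% interval from -1.03 to 1.23. Runx3 was at 1.82, 2.16 and 14.2 CPM in the controls and at 9.59, 5.198 and 4.11 CPM in the shelf, with a log2 fold change of 0.04. Without control 3 it became 1.64 (edgeR adjusted p = 0.0187). Mef2c, Omd, Ogn and Tnn had log2 fold changes of 1.05, 2.24, 2.48 and 1.96, with edgeR adjusted p-values of 0.0961, 0.123, 0.0850 and 0.0553. Leaving out 1 library brought each of them under the threshold: without shelf library 2 the adjusted p by edgeR was 0.00937 for Mef2c and 0.0362 for Tnn. Without control 3 it was 0.0277 for Omd, 0.00590 for Ogn and 0.00998 for Tnn. Mef2c, Ogn and Tnn also passed when limma was run on log2(TPM + 1) (adjusted p = 0.0449, 0.0411 and 0.0360) and without the filter on low counts. Spp1 had a log2 fold change of 1.92 (SE 1.21, edgeR adjusted p = 0.221).

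Of the 14 cartilage genes tested, 13 had log2 fold changes above 0, and 8 of them passed the threshold. Sox5 alone was below 0, and it passed too. Of all genes tested, 27.1% passed as higher and 23.4% as lower. Col9a2 was at 12.05, 18.3 and 10.3 CPM in the controls and at 227, 135 and 193 CPM in the shelf, with a log2 fold change of 3.79 (SE 0.28, edgeR adjusted p = 9.7e-05). Its 3 values in the shelf were close to each other and far from the controls. Col9a3 rose by 2.64 (SE 0.50), Matn4 by 4.78 (SE 0.95) and Cnmd by 4.96 (SE 1.15) on the log2 scale, with edgeR adjusted p-values of 0.00402, 0.00503 and 0.00937. Acan was at 0.195, 0.420 and 0.137 CPM in the controls and at 42.0, 1.74 and 4.28 CPM in the shelf, with a log2 fold change of 6.03 (SE 1.47, edgeR adjusted p = 0.0115). Every shelf library was above every control, by the widest margin in shelf library 1, and the adjusted p by limma on log2(TPM + 1) was 0.0787. Col11a1 rose by 1.64 (SE 0.50) and Col11a2 by 5.24 (SE 1.39) on the log2 scale, with edgeR adjusted p-values of 0.0268 and 0.0164. The adjusted p of Col11a1 by edgeR was 0.0828 and 0.0959 without control 1 or 2 and 0.0605 with the block, and that of Col11a2 was 0.0672 and 0.0508 without control 2 or 3.

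Of the 3 Sox factors of cartilage, Sox6 rose, Sox5 fell and Sox9 did not pass the threshold between the stages, and the factors were not tested against each other. Sox6 was at 32.7, 32.1 and 37.4 CPM in the controls and at 108, 47.2 and 74.8 CPM in the shelf, with a log2 fold change of 1.18 (SE 0.28, edgeR adjusted p = 0.00962). Sox5 was at 65.2, 55.1 and 29.8 CPM in the controls and at 22.5, 28.3 and 24.7 CPM in the shelf, with a log2 fold change of -0.98 (SE 0.26, edgeR adjusted p = 0.0168). The groups of Sox5 did not overlap in CPM, but its adjusted p by edgeR was 0.0564 without control 2, 0.0574 without shelf library 1 and 0.0569 without shelf library 3. With limma on log2(TPM + 1) the adjusted p of Sox5 was 0.141, and in TPM the groups overlapped, at 12.1 TPM in control 3 and 15.2, 15.3 and 11.3 TPM in the shelf. Sox9 was at 113, 79.1 and 35.7 CPM in the controls and at 114, 119 and 114 CPM in the shelf, with a log2 fold change of 0.61 (SE 0.35, edgeR adjusted p = 0.176). Without control 1, whose level was almost that of the shelf, it was 1.00 (edgeR adjusted p = 0.0342). Sox5 and Sox6 overlap antisense gene models, and strand use in the counting is not given in the sources used here. Col2a1 and Col9a1 had log2 fold changes of 0.28 and 0.22, with 95% intervals from -0.68 to 1.25 and from -1.46 to 1.89. Col2a1 was at 330 to 495 CPM in the controls, above shelf libraries 2 and 3 (321 and 281 CPM) and below shelf library 1 (853 CPM). Matn3 and Ucma had log2 fold changes of 0.58 and 0.68 and overlapping groups, and Matn3 reversed to -3.85 without shelf library 1 (edgeR adjusted p = 0.0197).

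The 10 members that the filter removed from this comparison were nearly absent from the maxillary controls. Ibsp was at 0.391, 0 and 0 CPM there, Ihh at 0.195, 0.120 and 0.046 CPM and Comp at 0, 0.240 and 0.137 CPM. With 0 counts in the 3 controls taken as 3 counts over the group, Matn1 was at least 188-fold higher in the shelf (1088 counts), Dmp1 at least 48.7-fold (282 counts) and Snorc at least 2.76-fold (16 counts). Chad had 1 count in the controls and 82 in the shelf, a scaled ratio of 42.4 with a counting interval from 7.41 to 1697. Intervals and floors cover counting error only. In shelf libraries 1, 2 and 3 the counts were 1080, 3 and 5 for Matn1 and 263, 8 and 11 for Dmp1. They were 16, 0 and 0 for Snorc and 73, 5 and 4 for Chad. These ratios thus rested mostly on shelf library 1, and that of Snorc on it alone. Bglap had 4 counts in the 3 shelf libraries and 0 in the controls, and Bglap2 was at 0 counts in some library of every group. Over the 12 libraries Bglap2 was at most at 0.028 CPM and Bglap3, another copy, at most at 0.208 CPM. Reads of the near-identical osteocalcin genes may be split between these copies, which was not tested.

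Other genes of the same lineages, from lists of 34 bone and 32 cartilage genes, showed which neighbours moved between the stages. Of the other bone genes, 18 of 26 tested passed (69.2%), 12 higher and 6 lower in the shelf. Of all genes tested 50.6% passed, 27.1% higher and 23.4% lower. The largest rises were those of Smpd3, an enzyme needed for mineralisation, at 6.62 on the log2 scale, Ifitm5, an osteoblast membrane protein, at 5.10, Vdr, the vitamin D receptor, at 4.64, Cgref1 at 4.01 and Postn, which encodes periostin, at 3.57. The largest falls were those of Msx2 (-3.24), Bambi (-1.40), Twist2 (-1.32), Bmp4 (-1.24) and Twist1 (-0.85), factors and signals of early facial mesenchyme. Smpd3 had the library order of Ibsp, at 193, 1.74 and 49.4 CPM in wild-type and at 106, 5.52 and 1.97 CPM in PI3K shelf libraries. Of the other cartilage genes, 17 of 27 tested passed (63%), 15 higher and 2 lower, against the same shares of all genes. Foxa2 was at 0 in all controls and at 1.62, 0.408 and 0.511 CPM in the shelf, and Fmod, which encodes fibromodulin (5.998), Prg4, which encodes lubricin (5.94), Papss2 (5.13) and Susd5 (4.76) followed. Trps1 (-2.04) and Sox8 (-1.45) fell. In the 2 genotype comparisons edgeR and DESeq2 each called 0 genes of both lists. At an unadjusted p under 0.05 by edgeR there were 0 of 29 bone and 3 of 29 cartilage genes in the palatal shelf. The share of all genes tested there was 2.14%. In the maxillary process there were 3 of 22 and 4 of 22, against 12.2% of all genes.

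Ectoderm genes were far higher in the shelf than in the maxillary controls, although both tissues had been digested. The ectoderm list rose for 10 of 10 genes, with a median log2 fold change of 7.25, and summed to 695 to 894 TPM in the shelf against 1.83 to 7.30 TPM in the controls. The macrophage list summed to 47.7 to 133 TPM against 29.1 to 34.8 TPM, and the osteoclast list to 26.7 to 159 TPM against 18.3 to 26.0 TPM. The part of these cells in the rise of the bone and cartilage genes was not tested.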

How the data were processed

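RNA was measured in 12 libraries of 4 groups of 3, grouped by their labels. For each gene the authors deposited an estimated count and a TPM value. STAR 2.7.0, Salmon 1.1.0, DESeq2 1.28.1 and the build mm10 are named in the submitters' processing notes, with no role given, and strand use is not given in the sources used here. Both kinds of table held 53392 versioned gene identifiers, of which 53355 were matched to GENCODE M21 (GRCm38) symbols and 37 were not. Of the 36 members, 14 overlap another gene model, 5 on the same strand (Runx2, Spp1, Phex, Kazald1 and Sox5).

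Estimated counts were rounded to whole numbers. Tests were run in R 4.3.3 with edgeR 4.0.16 (quasi-likelihood F-test, TMM, edgeR's filter on low counts, Benjamini-Hochberg adjustment over all genes tested, a false discovery rate of 0.05). Each comparison was fitted on its own 6 libraries with the group as the only term. Levels in CPM were scaled over all 12 libraries. The 3 count or log-value tests (edgeR, DESeq2, limma) were tried on simulated data with known changes. Precision is limited by 3 libraries per group and, for genes of a few counts, by depth. For these a floor of 3 counts and 95% exact intervals were used.

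The members and the gene lists were chosen with earlier results of these data known. Text names all members, and of the other bone and cartilage lists up to 5 rises and 5 falls past the threshold. Alternatives were other normalisations and filters, DESeq2 1.42.0, limma 3.58.1 on log2(TPM + 1) and log2(TPM + 0.1), the replicate number as a block, another threshold and leaving out each library. Leaving out both palatal shelf libraries numbered 1 was chosen after seeing the data. No set test was run, and values summed over the list of mesenchyme markers are not reported here.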

Additional observations from a re-analysis of the deposited data

How the results depend on the processing

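Every palatal shelf setting left 0 members past the threshold, and DESeq2 called 4 genes in all there. Directions were less stable. For Col11a1, Cytl1, Matn1 and Spp1 the log2 fold changes turned positive, to 0.13, 0.40, 0.37 and 0.22 with limma on log2(TPM + 1), to 0.14, 1.08, 1.32 and 0.53 with limma on log2(TPM + 0.1) and to 0.19, 0.86, 0.93 and 0.53 with the replicate block. With both libraries numbered 1 left out, Cnmd, Col11a1, Col9a3, Cytl1, Matn1, Phex and Spp1 turned to 0.58, 0.63, 0.22, 2.36, 3.56, 0.12 and 1.63. In the maxillary process Sox5 turned to 0.35 and 0.37 with limma at the 2 pseudocounts, and Sp7 to -0.027 with limma on log2(TPM + 0.1). Between the stages Matn3 turned to -0.84 with limma on log2(TPM + 0.1) and to -1.31 with the replicate block. In the maxillary process the genes past the threshold numbered 12, and 143 without the filter on low counts, 376 with DESeq2, 36 at a false discovery rate of 0.1 and 40 with the replicate block. Members past it were 2, 3, 0 and 1 in the same order. Between the stages, 22 members passed without the filter, a count with no share of all genes beside it. The cartilage median became 3.18 without the filter and 3.22 with DESeq2, as both add members of low counts.

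Whether replicate numbers pair the libraries was not settled. The deviations of same-numbered libraries from their group means correlated across genes at 0.58, 0.21 and -0.23 in the palatal shelf. In the maxillary process they correlated at 0.07, 0.11 and 0.25. For differently numbered libraries the correlations ran from -0.61 to 0.46 in the palatal shelf and from -0.26 to 0.185 in the maxillary process. The replicate block called 1 maxillary member, Runx2, at a log2 fold change of -1.29 (edgeR adjusted p = 0.0402). Over all its other maxillary alternatives, edgeR, DESeq2 and limma together, the adjusted p of Runx2 was 0.356 to 0.884. Between the stages the block called 12 members, a count with no share of all genes beside it.

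Leaving out 1 library at a time turned the sign of 36 fold changes of members. In the palatal shelf these ranged for Acan from -0.39 to 2.57, Alpl from -1.35 to 0.57, Cnmd from -1.07 to 1.20, Col11a1 from -0.41 to 0.77, Col11a2 from -2.72 to 1.71 and Col9a3 from -0.57 to 0.58. There the values ran for Cytl1 from -1.07 to 2.81, Dmp1 from -3.78 to 0.95, Ibsp from -8.94 to 2.54, Ihh from -3.22 to 0.071, Kazald1 from -0.22 to 0.77 and Matn1 from -3.07 to 6.02. Others ran for Matn3 from -0.82 to 4.50, Mef2c from -0.22 to 0.74, Ogn from -0.26 to 0.85, Omd from -1.86 to 0.82, Phex from -1.78 to 1.01 and Runx1 from -0.079 to 0.34. The rest ranged for Runx2 from -0.17 to 0.45, Sp7 from -2.07 to 0.35 and Spp1 from -0.77 to 2.38. The cartilage median ranged from -0.54 to 1.20 there. In the maxillary process they ranged for Alpl from -0.97 to 0.13, Col9a3 from -0.47 to 0.065, Mef2c from -0.34 to 0.11, Ogn from -2.20 to 0.71 and Runx3 from -0.57 to 1.83. They ran there for Sox6 from -0.11 to 0.020, Sp7 from -0.52 to 0.72, Tnn from -2.54 to 0.28 and Ucma from -0.12 to 0.81. The bone median ran from -0.62 to 0.28, and the genes past the threshold from 2 to 29 (6, 2 and 3 without control 1, 2 or 3, and 29, 4 and 10 without Srsf3 cKO library 1, 2 or 3). Between the stages they ranged for Col2a1 from -0.40 to 0.57, Col9a1 from -0.95 to 0.74, Matn3 from -3.85 to 1.18, Runx2 from -0.29 to 0.62, Runx3 from -0.41 to 1.64 and Spp1 from -0.47 to 2.49. The members past the threshold there ran from 9 without control 2 to 18 without shelf library 2, with no shares of all genes beside these counts. Of 1113 values of single members under the alternatives, 85 reversed, 19 fell short of the threshold and 20 newly passed it.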

Other observations

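The 2 gene groups also served to look for genes with the same pattern over the 6 palatal shelf libraries. Among 11756 genes outside the set with a mean of at least 5 CPM, likeness was taken as Pearson's r between log2 CPM and the mean centred level of the group. It is a description over 6 libraries that share the same contrast between the libraries numbered 1 and the rest, and it carries no test. CPM values in these 2 paragraphs were scaled over these 6 libraries alone. For the bone genes the closest were Kcnma1, a potassium channel (r = 0.998), Chrdl1, a BMP antagonist (r = 0.996), Ckap4, Nptn, Smpdl3a, Kdelr3, Ism1, Nrgn, Plcd1 and Aebp1. Kcnma1 was at 22.7, 7.70 and 12.2 CPM in wild-type and at 19.2, 10.2 and 9.52 CPM in PI3K libraries. Nrgn, which encodes neurogranin, was at 47.5, 7.23 and 20.2 CPM in wild-type and at 33.3, 11.6 and 9.15 CPM in PI3K libraries.

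For the cartilage genes the closest were Ccn4, a secreted matricellular protein (r = 0.994), Antxr2 (r = 0.993), Vsir, Ctsf, Stab1, Itfg1, Fzd5, Cthrc1, Csf1r and Wrb. Cthrc1, a secreted protein of matrix-producing cells, was at 43.1, 7.98 and 10.8 CPM in wild-type and at 32.5, 16.8 and 21.5 CPM in PI3K libraries. Csf1r, the receptor of macrophages and osteoclasts, was at 32.4, 11.6 and 13.1 CPM in wild-type and at 24.8, 14.7 and 15.5 CPM in PI3K libraries. It is on the macrophage list as well.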
